A study of Mus musculus with 16 samples.

Results

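In late 2-cell mouse embryos that carried a mutant Hdac1, 1502 H3K4me3 peaks of intermediate breadth lay where the control list held no H3K4me3 peak. They were chosen by their measured positions and widths. A peak of the mutant H3K4me3 list was taken if it lay on chromosomes 1 to 19, was wider than 5000 bp and at most 10000 bp, and shared no base with a control H3K4me3 peak. These 1502 were part of 85804 peaks in the mutant H3K4me3 list. Of the 11616 mutant peaks of that width on the same chromosomes they made up 12.9%. In the control list, 15.1% of the peaks of that width (1486 of 9818) shared no base with a mutant peak. Of mutant peaks of every width on these chromosomes, 54.1% shared none with a control peak. The absence of control H3K4me3 is the rule itself and not a result.

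The study used native chromatin immunoprecipitation with very small inputs, in which micrococcal nuclease cuts uncrosslinked chromatin and an antibody retrieves the modified nucleosomes. Embryos were taken 36 h after fertilization. The control embryos were injected with water as zygotes and the mutant embryos with mRNA of mutant Hdac1. The strain, the kind of mutation and the number of embryos per library are not given in the sources used here. Control embryos received no mRNA, so an effect of injected mRNA as such and an effect of the mutation cannot be told apart. Each of the 4 deposited lists (H3K4me3 and H3K27ac, control and mutant) stands for 2 immunoprecipitation libraries and holds only chromosome, start and end of each peak. Without heights or counts there is no replicate error and no known depth. All differences below are therefore differences between lists, no test between conditions was made, and 95% Wilson intervals cover counting error only.

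H3K4me3 is placed on nucleosomes at gene starts, above all at CpG-rich promoters, where CXXC-domain proteins bring the methyltransferase complexes to unmethylated CpGs. The mouse oocyte instead carries broad H3K4me3 domains over much of the genome outside promoters, and these are removed by Kdm5 demethylases around the late 2-cell stage. H3K27ac marks active promoters and enhancers. Hdac1 is a histone deacetylase that works within the Sin3, NuRD and CoREST corepressor complexes.

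The promoters that lay within these peaks held fewer CpGs than those in peaks present in both conditions. Shown first are RefSeq promoter windows of 300 bases on GRCm38.p6, each running from 250 bases before a start site to 50 after it, in the sense of the gene. Capitals mark CpG dinucleotides. The first 7 belong to genes without control H3K4me3 at either gene end whose start lay inside a mutant-only peak. They are the 4 with the widest such peaks and the 3 that are in the fixed gene lists. Emc7, a housekeeping gene whose start lay in a mutant peak of the same width class that overlapped a control peak, is shown for contrast and was chosen for a CpG count near the median of such windows.
Haao (tryptophan breakdown, chr17:83846741-83847040, minus strand, 10 CpGs): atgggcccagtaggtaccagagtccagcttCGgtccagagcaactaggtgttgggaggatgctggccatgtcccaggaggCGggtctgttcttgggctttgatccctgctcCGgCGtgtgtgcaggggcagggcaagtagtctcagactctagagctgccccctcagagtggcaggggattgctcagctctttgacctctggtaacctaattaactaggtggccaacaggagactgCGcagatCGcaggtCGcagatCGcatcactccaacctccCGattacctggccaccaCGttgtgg
Htr2a (serotonin receptor, chr14:74640624-74640923, plus strand, 6 CpGs): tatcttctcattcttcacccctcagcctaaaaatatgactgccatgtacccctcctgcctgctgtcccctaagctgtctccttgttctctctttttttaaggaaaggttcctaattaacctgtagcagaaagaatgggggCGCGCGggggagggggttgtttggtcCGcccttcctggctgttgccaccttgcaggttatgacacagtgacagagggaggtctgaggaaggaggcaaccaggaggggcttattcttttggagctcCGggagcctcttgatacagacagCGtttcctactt
Siah3 (chr14:75455732-75456031, plus strand, 9 CpGs): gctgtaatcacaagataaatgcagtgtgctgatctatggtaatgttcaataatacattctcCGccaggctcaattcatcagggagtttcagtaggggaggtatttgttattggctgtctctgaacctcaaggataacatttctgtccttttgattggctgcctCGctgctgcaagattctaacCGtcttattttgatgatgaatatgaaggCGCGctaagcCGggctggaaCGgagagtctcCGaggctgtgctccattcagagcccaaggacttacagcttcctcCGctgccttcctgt
Serpinb6c (serpin, chr13:33905142-33905441, minus strand, 10 CpGs): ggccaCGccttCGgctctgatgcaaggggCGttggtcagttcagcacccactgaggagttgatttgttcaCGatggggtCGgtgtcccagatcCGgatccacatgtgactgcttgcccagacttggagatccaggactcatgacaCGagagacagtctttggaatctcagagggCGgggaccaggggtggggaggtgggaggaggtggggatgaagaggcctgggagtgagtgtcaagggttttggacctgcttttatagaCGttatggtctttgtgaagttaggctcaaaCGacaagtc
Nlrp5 (oocyte factor, chr7:23385639-23385938, plus strand, 9 CpGs): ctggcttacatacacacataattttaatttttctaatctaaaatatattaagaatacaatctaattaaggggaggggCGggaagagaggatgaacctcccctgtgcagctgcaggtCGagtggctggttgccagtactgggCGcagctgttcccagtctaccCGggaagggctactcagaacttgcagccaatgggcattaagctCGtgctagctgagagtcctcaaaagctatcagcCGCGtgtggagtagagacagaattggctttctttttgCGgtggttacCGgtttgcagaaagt
Nlrp2 (oocyte factor, chr7:5350986-5351285, minus strand, 3 CpGs): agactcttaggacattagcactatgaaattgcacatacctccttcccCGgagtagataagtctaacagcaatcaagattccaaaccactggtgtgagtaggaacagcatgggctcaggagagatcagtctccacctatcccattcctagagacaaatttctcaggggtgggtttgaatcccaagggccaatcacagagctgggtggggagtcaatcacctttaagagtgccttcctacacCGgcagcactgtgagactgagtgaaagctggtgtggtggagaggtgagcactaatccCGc
Usp17ld (deubiquitinase, chr7:103252456-103252755, minus strand, 0 CpGs): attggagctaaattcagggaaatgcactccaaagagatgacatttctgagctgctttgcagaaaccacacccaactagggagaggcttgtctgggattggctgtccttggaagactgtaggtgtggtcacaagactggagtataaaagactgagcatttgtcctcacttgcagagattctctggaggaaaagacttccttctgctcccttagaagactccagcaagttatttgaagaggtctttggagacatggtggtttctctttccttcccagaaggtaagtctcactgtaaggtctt
Emc7 (membrane protein insertion, chr2:112454775-112455074, plus strand, 23 CpGs): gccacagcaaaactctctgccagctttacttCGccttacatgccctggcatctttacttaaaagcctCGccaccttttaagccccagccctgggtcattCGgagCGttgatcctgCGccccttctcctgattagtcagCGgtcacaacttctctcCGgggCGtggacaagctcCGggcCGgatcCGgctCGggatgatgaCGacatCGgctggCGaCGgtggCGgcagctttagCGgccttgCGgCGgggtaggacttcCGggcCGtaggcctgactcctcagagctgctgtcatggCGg

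In all, 70 RefSeq start sites of 65 protein-coding genes lay inside a mutant-only peak. Their windows held a median of 6 CpGs, with quartiles of 3 and 9, and a median GC content of 52%. The 4301 coding start sites inside overlapping mutant peaks of 5 to 10 kb had a median of 22 CpGs (quartiles 14 and 30) and 62% GC. The mutant-only windows thus held far fewer CpGs than those of peaks present in both conditions. The 126 coding start sites in control-only peaks of the same width lay between, with a median of 15 CpGs and quartiles of 6 and 23. Start sites with no H3K4me3 peak in either condition, 5634 in number, had a median of 2 CpGs and quartiles of 1 and 5. At least 10 CpGs were found in 22.9% of the windows in mutant-only peaks, in 84.8% of those in overlapping mutant peaks, in 60.3% of those in control-only peaks and in 5.61% of those without a peak. Over all coding start sites the share was 57.9%. With start sites of every gene class the 2 single-condition sets were closer. The medians were 5 CpGs in mutant-only (quartiles 3 and 7) and 8.5 in control-only peaks (quartiles 4 and 19). They were 21 in overlapping mutant peaks and 3 without H3K4me3.

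**Figure D1:**
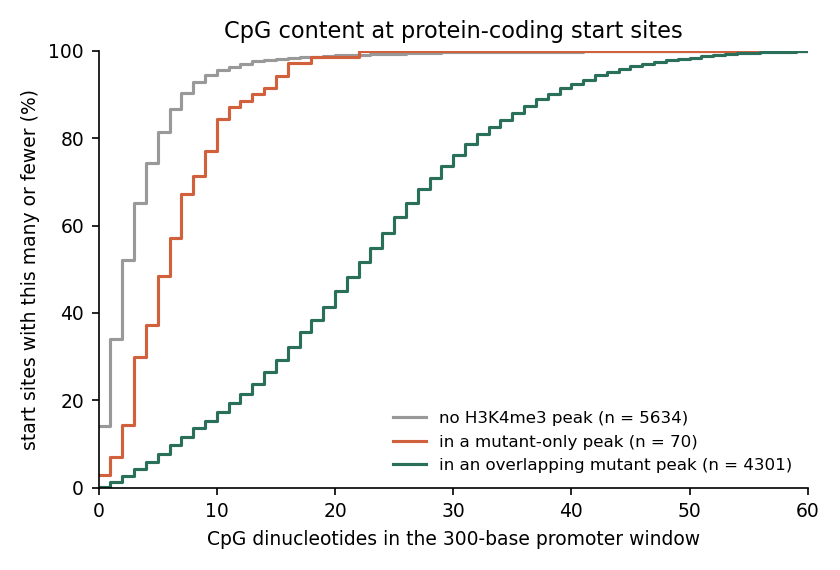
Cumulative share of protein-coding start sites (vertical axis, %) by the number of CpG dinucleotides in the RefSeq promoter window (horizontal axis). Start sites in mutant-only peaks of 5 to 10 kb (median 6) lie between start sites without H3K4me3 (median 2) and those in overlapping mutant peaks (median 22).

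Core promoter motifs in the windows were counted on both strands. The GC box GGGCGG, which itself holds a CpG, was present in 35.7% of the 70 windows in mutant-only peaks, against 65.8% in overlapping mutant peaks, 45.2% in control-only peaks, 9.39% without H3K4me3 and 47.0% over all coding start sites. The TATA motif TATAAA occurred in 15.7%, against 6.44%, 3.97%, 26.9% and 12.7% in the same order. For both motifs the mutant-only windows lay between those of overlapping peaks and those without H3K4me3. The CCAAT motif was found in 45.7%, against 36.4%, 40.5%, 41.0% and 38.1%. With 70 windows each motif rests on few sequences, 11 of them for TATAAA and 25 for the GC box, and a match is only a match of letters.

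Only 10.5% of the mutant-only peaks (150 of 1435 on chromosomes with start site data, interval 8.97 to 12.1%) held a RefSeq start site of any gene class. Overlapping mutant peaks of that width held one in 38.7% (37.8 to 39.7%) and control-only peaks in 10.3% (8.84 to 11.98%). Peaks found in a single condition thus lay away from starts in both directions of the comparison. For another 22.6% of the mutant-only peaks the nearest start was within 10 kb, for 42.1% it was over 10 and up to 50 kb away, and for 24.9% it was farther than 50 kb. The last share was 18.0% for control-only and 11.8% for overlapping mutant peaks. Mutant peaks of every width held a start in 14.4% and lay farther than 50 kb from one in 27.7%.

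Peaks of a single condition also touched gene ends less often than overlapping peaks, and lay in gene bodies more often than those. A window of 2 kb on each side of either end of a protein-coding gene was touched by 13.1% of the mutant-only peaks (197 of 1502, 11.5 to 14.9%), by 20.5% of control-only peaks (18.5 to 22.6%) and by 47.9% of overlapping mutant peaks. Over mutant H3K4me3 peaks of every width the share was 21.0%. By their midpoints, 57.7% of the mutant-only peaks (55.1 to 60.1%) lay between genes, 36.8% in gene bodies and 5.53% in gene-end windows. Gene bodies held 46.2% of control-only, 32.1% of overlapping mutant and 38.2% of mutant peaks of every width. Between genes lay 43.4% of control-only peaks (40.9 to 45.9%), 36.6% of overlapping mutant peaks and 47.6% of mutant peaks of every width. Mutant-only peaks were therefore the set with the largest share between genes among these 4. Long noncoding RNA genes were touched by 17.2% of the mutant-only, 17.9% of the overlapping mutant and 12.6% of the control-only peaks.

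**Figure D2:**
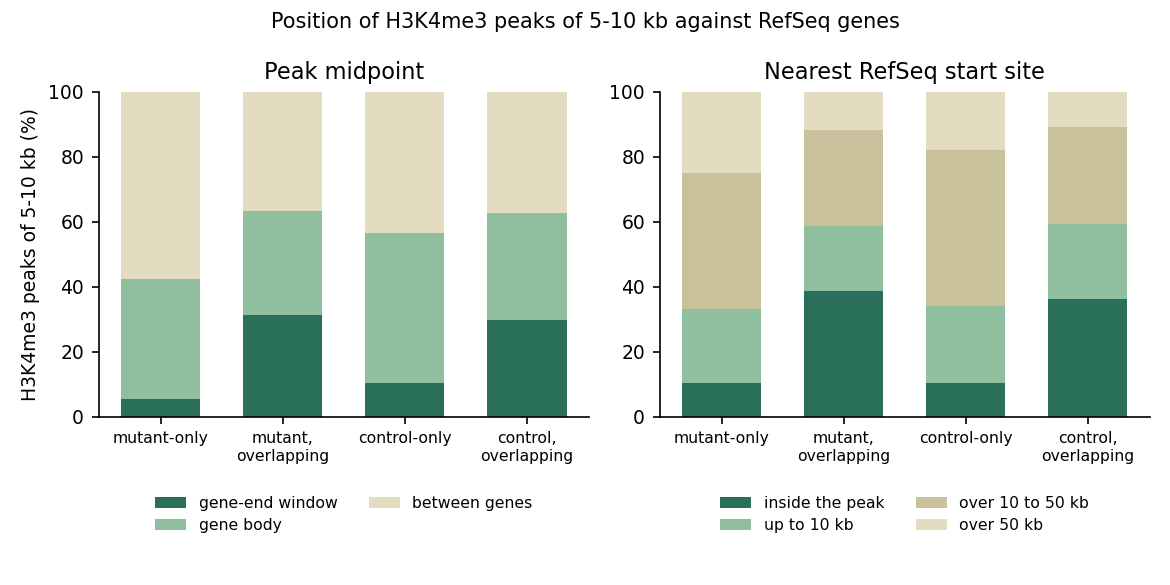
Position of H3K4me3 peaks of 5 to 10 kb in 4 sets, as stacked shares of peaks (%): by peak midpoint against protein-coding genes (left) and by distance to the nearest RefSeq start site (right, chromosomes with start site data). Mutant-only peaks lie between genes in 57.7% and hold a start site in 10.5%.

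The mutant-only peaks overlapped H3K27ac of mutant embryos more often than H3K27ac of control embryos, and both less often than peaks present in both conditions. H3K27ac was not used in choosing them. Of the 1502 peaks, 59.4% (892, 56.9 to 61.8%) overlapped a mutant H3K27ac peak and 36.5% (548, 34.1 to 38.95%) a control H3K27ac peak. Mutant H3K4me3 peaks of every width did so in 39.4% and 35.1%, but most of those are narrower and less likely to touch any peak. Against mutant peaks of the same width that overlapped a control H3K4me3 peak, both shares were lower: those were 70.5% (69.6 to 71.4%) and 67.5% (66.6 to 68.4%). The difference in control H3K27ac was present in each width class. Among peaks of 5 to 6 kb control H3K27ac touched 32.5% of mutant-only and 61.7% of overlapping mutant peaks, and among those of 8 to 10 kb 39.5% and 74.8%.

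By H3K27ac the peaks fell into 4 states. H3K27ac was found in mutant embryos alone at 530 mutant-only peaks, or 35.3% (32.9 to 37.7%), in both conditions at 362 (24.1%), in control embryos alone at 186 (12.4%) and in neither at 424 (28.2%). The first of these, H3K27ac in mutant embryos alone, made up 17.9% of overlapping mutant peaks, 12.9% of control-only peaks and 16.0% of mutant H3K4me3 peaks of every width. Peaks with neither mark of acetylation made up 14.6% of overlapping mutant and 12.3% of control-only peaks, and 48.8% of mutant H3K4me3 peaks of every width, which are mostly narrower. The states differed little in where they lay: between 53.2% (control H3K27ac alone) and 62.1% (mutant H3K27ac alone) of their peaks were between genes.

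**Figure D3:**
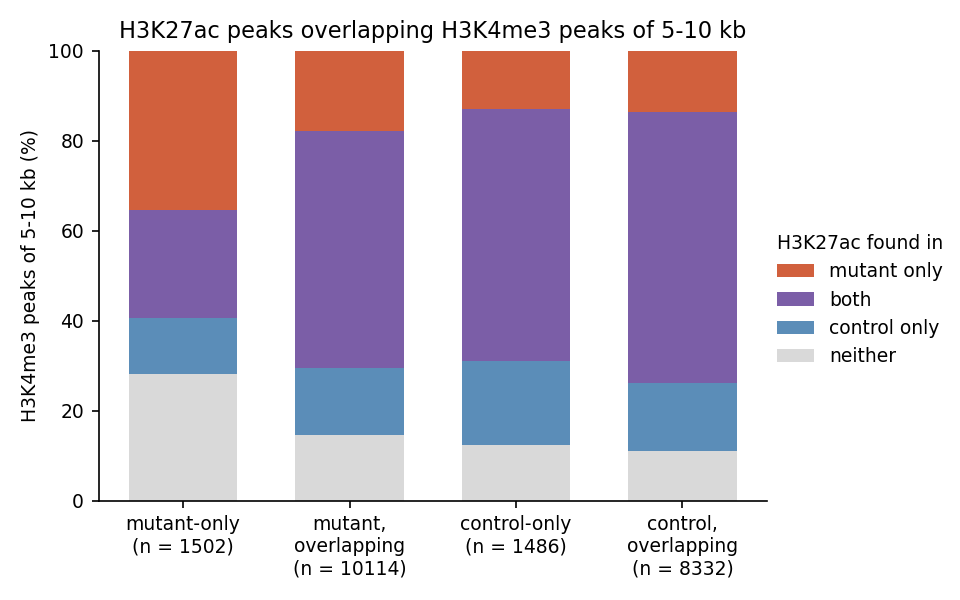
Share (%) of H3K4me3 peaks of 5 to 10 kb that overlap an H3K27ac peak of the mutant list alone, of both lists, of the control list alone or of neither. Mutant-only peaks have the largest shares of mutant H3K27ac alone (35.3%) and of neither (28.2%) among the 4 sets.

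The H3K27ac lists differ in make-up, with 114737 mutant and 73320 control peaks on these chromosomes, so counting any overlap favours the mutant list. The bases they cover are close, 9.64% and 9.83% of the chromosome span, and shares of bases are less affected. Of the bases of mutant-only H3K4me3 peaks, 25.3% lay under mutant and 13.1% under control H3K27ac. In control-only peaks of the same width the values were 37.8% and 59.9%, and in overlapping mutant peaks 39.2% and 44.7%. The 2 single-condition sets were thus unlike in acetylation: control-only H3K4me3 peaks lay largely within H3K27ac of their own condition, and mutant-only peaks mostly did not. At least 50% of the peak was under H3K27ac of its own condition for 21.8% of mutant-only and 62.5% of control-only peaks. Peaks present in both conditions had a smaller difference of the same sign, with 39.2% of the bases of mutant peaks under mutant H3K27ac and 57.3% of those of control peaks under control H3K27ac.

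The H3K27ac peaks beneath also differed in width. The 1210 mutant H3K27ac peaks that touched a mutant-only H3K4me3 peak had a median width of 2210 bp, and the 649 control ones 1885 bp. Under control-only H3K4me3 peaks the control H3K27ac peaks had a median of 7138.5 bp, and 65.9% were wider than 5 kb, against 22.8% of the control ones under mutant-only peaks. Across the whole lists the medians were 1088 bp in mutant and 1205 bp in control embryos.

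Coverage was next followed over 50 kb to each side of the peak centres, which sets each position against its own surroundings. At mutant-only peaks, mutant H3K27ac covered 26.4% of the central 4 kb and 15.7% of the bases 40 to 50 kb away. Control H3K27ac covered 14.1% of the centre and 15.1% at that distance, and 12.3% at 10 to 15 kb. In the 1 kb bins centred 4.5 kb before and after the peak centre it covered 9.62% and 9.23%, so the control list had a local rise over the bases just beside the peaks, to a level no higher than far away. At control-only peaks, control H3K27ac rose from 28.4% to 61.5% and mutant H3K27ac from 24.5% to 38.9%. Places with H3K4me3 in the control list alone thus had H3K27ac above the level far away in both lists, and places with it in the mutant list alone had it so in the mutant list. The surroundings differed as well. H3K4me3 covered 17.6% (control list) and 20.1% (mutant list) of the bases 40 to 50 kb from mutant-only peaks, and 26.6% and 27.5% at that distance from control-only peaks. Over the chromosome span the 2 lists cover 10.03% and 11.1%.

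**Figure D4:**
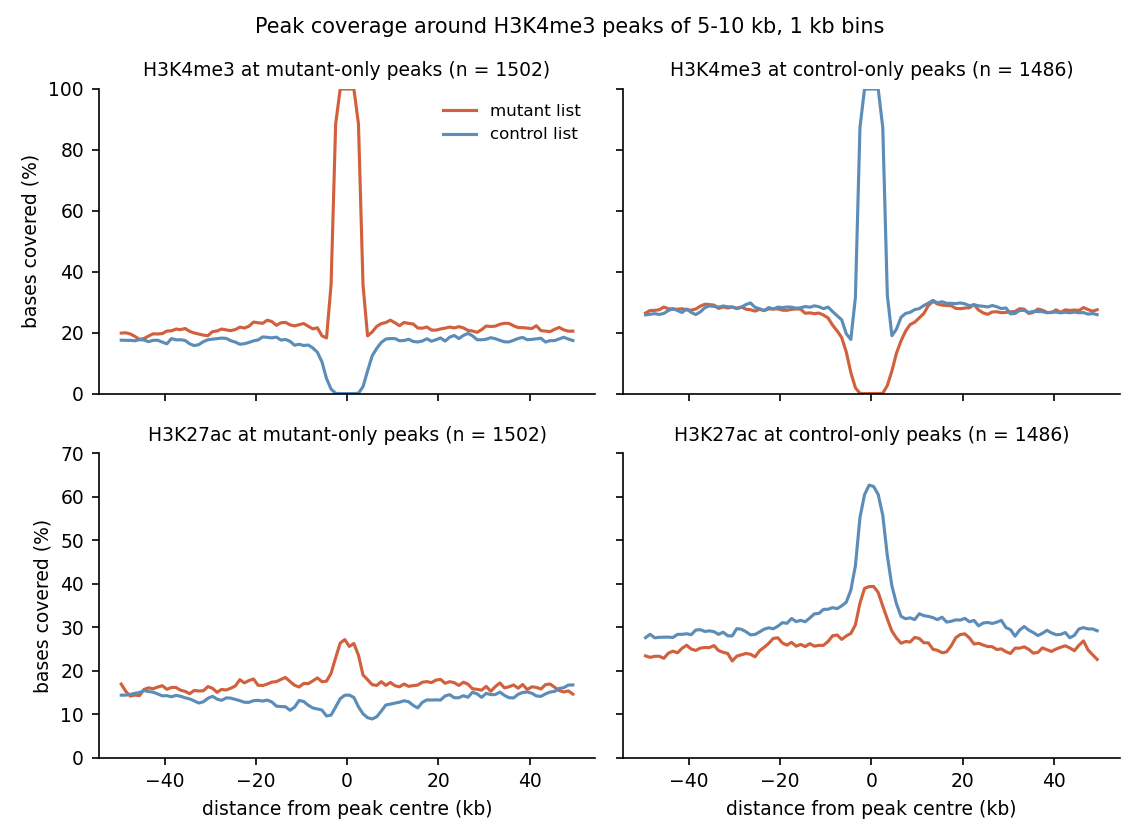
Share of bases covered by peaks (vertical axis, %) in bins of 1 kb against distance from the peak centre (horizontal axis, kb), for H3K4me3 (top) and H3K27ac (bottom) at mutant-only (left) and control-only (right) peaks. The H3K4me3 curves within the peaks follow from the choice of peaks; control H3K27ac covers 14.1% of the centre and 15.1% of the far bins at mutant-only peaks and rises to 61.5% at control-only peaks.

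The mutant-only peaks were seldom far from other H3K4me3. As a description of the rule's own measure, the nearest control H3K4me3 peak lay a median of 5166.5 bp away (quartiles 2168.75 and 11172.5 bp), and it was beyond 10 kb for 28.8% and beyond 50 kb for 1.86% of the peaks. For 345 peaks it was within 2 kb. Where it lay within 10 kb (1070 peaks), that neighbour had a median width of 2044 bp, against 1695 bp for all control peaks, and 55.05% of these neighbours overlapped a mutant peak, against 48.7% of all control peaks. Another mutant H3K4me3 peak lay within 10 kb of 80.3% of the mutant-only peaks (78.2 to 82.2%), against 71.8% for mutant peaks of every width and 86.1% for overlapping mutant peaks of 5 to 10 kb. In 50.1% such a neighbour itself overlapped control H3K4me3, and in 10.3% it was a domain wider than 10 kb with control overlap. For overlapping mutant peaks these shares were 70.3% and 21.6%.

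Few of them lay in groups. Another mutant-only peak of 5 to 10 kb was within 50 kb for 212 of the 1502 (14.1%), and for 282 of the 1486 control-only peaks (18.98%) with respect to their own set. Linked at that distance, 1290 peaks stood alone, 86 groups held 2, 12 groups held 3 and a single group held 4. That group spanned 119142 bp of chromosome 11 (54728188 to 54847329) over Cdc42se2 and Lyrm7. Its 4 peaks measured 5828 to 7656 bp, and 3 of them overlapped mutant and 3 control H3K27ac. Mutant H3K4me3 covered 50.9% of the span against 29.6% in control. The choice of the group by its mutant-only peaks, which made up 27557 bp of the span, favours that direction. The span was thus a place that carried H3K4me3 in both conditions, with further peaks between those of the control.

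The number of mutant-only peaks fell with width within the class, as it did outside it. Of mutant peaks of 5 to 6 kb, 17.6% (643 of 3650) had no control overlap, of those of 9 to 10 kb 6.05% (80 of 1322). Below the class it was 37.7% at 2 to 5 kb, and above it, over 10 kb, 1.95% (107 of 5497). The share of control peaks without mutant overlap fell likewise, from 20.4% at 5 to 6 kb to 6.57% at 9 to 10 kb. The median width of the mutant-only peaks was 6265.5 bp. The 5 narrowest members measured 5002 to 5005 bp and the 5 mutant-only peaks just below the limit 4997 to 5000 bp. The 5 widest measured 9929 to 9998 bp and the 5 just above the limit 10022 to 10130 bp. Nothing in the widths sets the class apart from its neighbours. Together the members covered 9.85 Mb, or 3.61% of the bases of the mutant H3K4me3 list on these chromosomes.

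Chromosomes contributed unequally. The density was 6.10 mutant-only and 6.04 control-only peaks per 10 Mb over all 19 chromosomes, and mutant-only peaks made up 50.3% of both sets together (48.5 to 52.1%). On chromosome 17 there were 38 mutant-only and 70 control-only peaks, a share of 35.2% (26.8 to 44.6%). On chromosome 18 there were 67 and 40, a share of 62.6% (53.2 to 71.2%), and on chromosome 1 125 and 87, 58.96% (52.2 to 65.4%). On chromosome 3 the 92 and 65 peaks gave 58.6% (50.8 to 66.0%). These chromosomes were picked from the 19 for their shares, and the intervals cover counting error only. No test was made over the chromosomes, so the shares are a description. Chromosome 19 had the highest density of mutant-only peaks, 11.1 per 10 Mb, and chromosome 17 the lowest, 4.005.

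**Figure D5:**
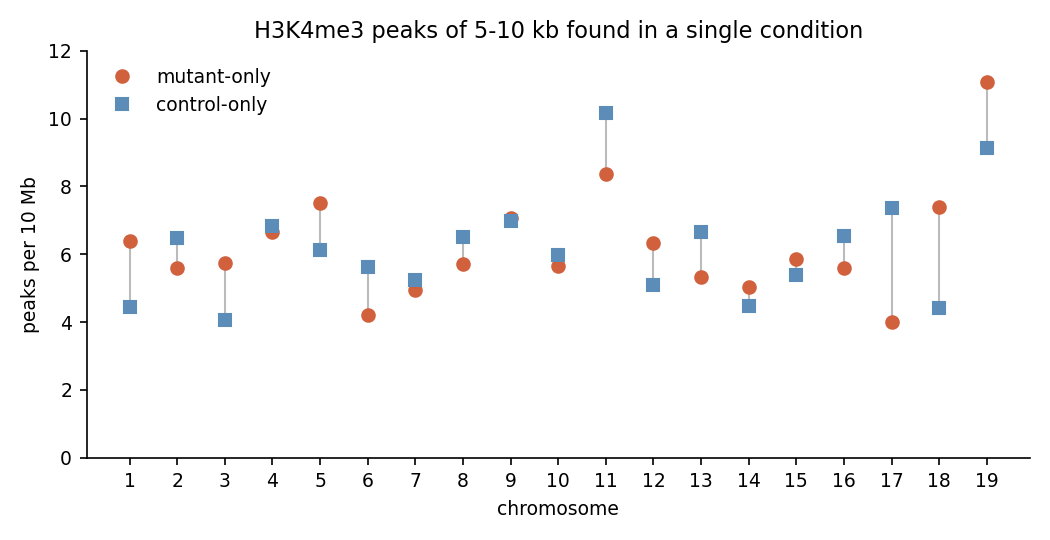
Mutant-only (circles) and control-only (squares) H3K4me3 peaks of 5 to 10 kb per 10 Mb of each chromosome (vertical axis), with a line joining both sets. Mutant-only peaks are at 4.005 per 10 Mb on chromosome 17 and at 11.1 on chromosome 19. Per 10 Mb they exceed control-only peaks most on chromosome 18 (7.39 against 4.41).

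A mutant-only peak lay inside or within 2 kb of 692 of 20665 protein-coding genes (3.35%) and at an end of 223. Of these 223, 138 already had control H3K4me3 at an end. The other 85 had none in either end window and are called newly marked here, out of 1012 genes (20.8% of the 4875 without control H3K4me3) that had a mutant peak of any width. Where the strand was known, the peak lay at the start of 43 of the 85, at the far end of 15 and at both ends of 12, and for 15 it was unknown. The newly marked genes had a median length of 17634 bp, near that of all coding genes, 17491 bp. Mutant H3K27ac lay at an end of 51 of the 85 and control H3K27ac of 38. Mutant H3K27ac alone was found for 28 genes, control H3K27ac alone for 15 and neither for 19. Shares over all coding genes are not given here, and the mutant H3K27ac list holds more peaks, 114737 against 73320. These counts are therefore no measure of acetylation gained at these genes.

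Among the 12 newly marked genes with the widest peaks were genes of receptors, enzymes and secreted proteins. Htr2a, a serotonin receptor of neurons (chromosome 14, 74640874 to 74706859), had a peak of 9545 bp over its start, 20441 bp from control H3K4me3, with no mutant H3K27ac and 5.87% of its bases under control H3K27ac. Haao, an enzyme of tryptophan breakdown (chromosome 17, 83831348 to 83848981), had 9638 bp at its start, 26.3% under mutant and none under control H3K27ac. The Haao peak lay 2457 bp from control H3K4me3. Vxn on chromosome 1 had the widest peak of the 85, 9804 bp, without H3K27ac in either condition. It lay only 558 bp from control H3K4me3, and control H3K27ac lay at an end of Vxn. Tnn, which encodes the matrix protein tenascin N, had 8681 bp at its start, 37064 bp from control H3K4me3 and without H3K27ac. Cdk5r1, the activator of a neuronal kinase, had 8829 bp, 11331 bp from control H3K4me3 and with H3K27ac in both conditions. The remaining 7 had peaks of 8513 to 9002 bp. They were Siah3, Serpinb6c (a serpin), Tnfrsf26 (a receptor), Defb45 (a defensin), Pdcd4 (an inhibitor of translation) and the Prame-like genes Pramel27 and Pramel25. Their peaks lay from 606 bp (Siah3) to 50710 bp (Pramel25) from control H3K4me3. Pramel27 and Pramel25 lie near each other on chromosome 4 within a family of similar copies, where reads can be placed at a wrong copy, so these calls are uncertain.

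Of the listed oocyte genes, Nlrp5 and Nlrp2 were newly marked. Both encode NLR proteins stored in the egg, and Nlrp5 belongs to the subcortical maternal complex. Nlrp5 (chromosome 7, 23385889 to 23441923) had a mutant peak of 8201 bp over its start, 21122 bp from the nearest control H3K4me3 peak. Control H3K27ac covered 26.1% of it and mutant H3K27ac 1.98%. Nlrp2 (chromosome 7, 5298547 to 5351035) had 5789 bp over its start, 24.7% under control and 38.0% under mutant H3K27ac. Usp17ld, of a deubiquitinase family with 2-cell members (chromosome 7, 103250086 to 103252505), was the listed 2-cell gene with such a peak, 5946 bp long and 29914 bp from control H3K4me3, with 13.1% of its bases under mutant and 16.2% under control H3K27ac. It too has close copies and its call is uncertain. Cacna1c, a calcium channel gene (chromosome 6, 118587240 to 119197384), had 5715 bp at its far end.

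Other newly marked genes, named here after their values had been seen, included immune receptors and effectors (Slamf6, Cd48, Cd300a, Ltbr, Laptm5, Ripk3, Nlrc5), genes of meiosis and sperm (Sycp2l, Syce1l, Odf1) and olfactory, taste or amine receptors (Olfr414, Olfr1367, Olfr286, Olfr1512, Tas2r126, Taar4). Their peaks measured between 5152 bp at Olfr1512 and 8243 bp at Nlrc5. The sets are small and no theme was tested.

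Among the 11 fixed gene lists, neuronal genes had the highest share with a mutant-only peak. With 3.35% of all coding genes as the background, a mutant-only peak inside or within 2 kb was found for 0 of 26 pluripotency genes, 0 of 31 acetyltransferase and acetyl-lysine reader genes and 0 of 38 housekeeping genes. It was found for 1 of 35 listed 2-cell genes, 3 of 39 oocyte genes, 2 of 28 trophectoderm and Hippo genes, 3 of 125 later developmental transcription factors and 3 of 85 signalling genes. All 31 acetyltransferase and reader genes and all 38 housekeeping genes carried H3K4me3 at a gene end in both conditions. Among the regulators, 2 of 27 H3K4 methylation genes and 3 of 47 deacetylase and corepressor genes had one. The neuronal adhesion, synapse and channel genes had 17 of 96 (17.7%). The shares of the oocyte (7.69%), H3K4 methylation (7.41%), trophectoderm and Hippo (7.14%), deacetylase (6.38%) and signalling (3.53%) lists were also above the background, each on 2 or 3 genes. The median length of the neuronal list is 856184 bp, and of all coding genes longer than 300 kb 16.9% (90 of 533) held a mutant-only peak. Per Mb of gene with its flanks of 2 kb the longest class held fewest, 0.337 peaks, against 0.786 for genes of 100 to 300 kb, 0.837 for 20 to 100 kb and 0.824 for shorter ones.

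The 17 neuronal genes held 20 mutant-only peaks, 10 of them with mutant H3K27ac alone, 4 with both, 4 with control H3K27ac alone and 2 with neither. Within Robo1, an axon guidance receptor gene on chromosome 16, a peak of 6182 bp had 64.2% of its bases under mutant H3K27ac alone. Dab1, which encodes the adaptor of reelin signalling on chromosome 4, held 5806 bp with 91.8% under mutant H3K27ac alone. Tenm4, a teneurin adhesion gene on chromosome 7, held 2 peaks of unlike state, one of 5758 bp with 56.2% under mutant and one of 6948 bp with 2.95% under control H3K27ac. Prkg1, a cGMP-dependent kinase gene on chromosome 19, had the widest peak of the list, 9065 bp, with 34.4% under mutant and 58.4% under control H3K27ac.

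Among the deacetylase genes, Hdac9, which encodes a class IIa deacetylase (chromosome 12, 34047580 to 34917095), held 2 such peaks within its body. They measured 7052 and 8053 bp, lay 14442 and 5687 bp from control H3K4me3, and had 44.1% and 34.2% of their bases under mutant and none under control H3K27ac. Hdac9 had no control H3K4me3 at either gene end. Gatad2a, a NuRD subunit gene on chromosome 8, held 5809 bp wholly under mutant H3K27ac and 74.5% under control H3K27ac. Tbl1xr1, of the NCoR corepressor on chromosome 3, had 5003 bp at its far end, 49.5% under mutant H3K27ac alone. Both genes carried control H3K4me3 at an end. Ash1l, a histone methyltransferase gene on chromosome 3, held 6334 bp with 91.4% under control and 78.4% under mutant H3K27ac. At Smyd1, a methyltransferase gene of muscle on chromosome 6, a peak of 7820 bp at the start had 89.4% of its bases under control but 2.40% under mutant H3K27ac. Smarca4, the remodeller ATPase gene on chromosome 9 and the third oocyte-list gene, held 6986 bp in its body, 89.4% under control and 40.3% under mutant H3K27ac.

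Genes of the early lineages, of later development and of signalling held single peaks, each with control H3K4me3 at a gene end. Wwtr1, which encodes the Hippo effector TAZ (chromosome 3, 57455644 to 57575910), held 8406 bp in its body, 15848 bp from control H3K4me3, with 61.7% under mutant H3K27ac alone. Its partner gene Tead1 on chromosome 7 held 5639 bp, with 70.2% under control H3K27ac alone. Pax2, a kidney and midbrain regulator on chromosome 19, held 6431 bp, 68.3% under mutant H3K27ac alone. The remaining peaks lay at Pax5, Gata5, Acvr1, Igf1r and Wnt5b, with 5408 to 7909 bp and at most 15.6% of their bases under H3K27ac of either condition. Acetylation at these peaks thus ran from none to mostly mutant or mostly control H3K27ac.

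Of the coding genes, 39 held 2 or more mutant-only peaks and 6 held 3 or more. Slc14a2, a urea transporter gene (chromosome 18, 78146144 to 78596950), held 4, of 5058 to 8440 bp, 2 with mutant and 0 with control H3K27ac. H3K4me3 covered 70849 bp of this gene in mutant and 36122 bp in control embryos. Nmnat2, an NAD-synthesis enzyme gene of neurons (chromosome 1, 152954781 to 153119266), held 3, of 5561 to 5825 bp, and 16 mutant against 4 control H3K4me3 peaks, covering 47193 and 9218 bp. The others with 3 were Etl4 (105576 and 93992 bp covered), Mob3b (62482 and 38855 bp), Myo1d (33508 and 15574 bp) and Niban1 (65844 and 33188 bp). Mob3b had fewer peaks in mutant than in control embryos, 13 against 18. All 6 carried control H3K4me3 at a gene end and had more covered length in mutant embryos, a direction that the choice of genes by mutant-only peaks favours.

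The 8 widest members lay between genes with the exception of the peak of 9970 bp within Arhgap10 on chromosome 8 (77332200 to 77342169). The widest, 9998 bp on chromosome 19 (59189477 to 59199474), lay 19079 bp from Vax1, a homeobox gene of the ventral forebrain, with 0.790% of its bases under mutant H3K27ac. A peak of 9916 bp on chromosome 2 (70615831 to 70625746) lay 13816 bp from Gad1, which makes the transmitter GABA. One of 9904 bp on chromosome 11 (94921267 to 94931170) lay 5053 bp from the collagen gene Col1a1, with 26.1% under mutant and 52.2% under control H3K27ac. A peak of 9897 bp lay 3097 bp from Dapk1, with 92.8% under control and 13.2% under mutant H3K27ac. The others were nearest to Map3k1, Cog6 and Chd1l. The 8 thus ranged from no H3K27ac, near Chd1l, to mostly control H3K27ac.

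The 8 members farthest from control H3K4me3 lay 74762 to 253667 bp from it. The farthest was a peak of 5679 bp on chromosome 8 (55112636 to 55118314) over the predicted gene Gm51571, with 17.3% under control H3K27ac. Next came 5310 bp on chromosome 10 (129758652 to 129763961), 163987 bp from control H3K4me3 and 3203 bp from the olfactory receptor gene Olfr807. Peaks within Agbl4 (8355 bp) and Trabd2b (8194 bp), both on chromosome 4, were 122531 and 120630 bp away. Others had Ccer1, Htr7 and Xkr4 as nearest coding genes, and the last lay at the far end of C4bp, a complement regulator gene. Of the 8, 3 had no other mutant H3K4me3 peak within 50 kb either, those at Trabd2b, Ccer1 and Xkr4. Mutant H3K27ac covered at most 48.1% of any of them (C4bp).

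Some members lay largely under mutant H3K27ac. Of those without control H3K27ac, the peak with the most mutant H3K27ac measured 9864 bp within Cspg4b on chromosome 13 (113325724 to 113335587), and 99.97% of it lay under mutant H3K27ac. It was 17994 bp from control H3K4me3. A peak of 7394 bp on chromosome 2 (106427515 to 106434908), 17771 bp from Dcdc5, was wholly under mutant H3K27ac. The others of the 8 lay near Maea, Sema3f, Cep350, Rnf112, Nabp1 and Sema6a, 6311 to 89198 bp from these genes and with 79.8 to 92.6% of their bases under mutant H3K27ac. Sema3f and Sema6a encode semaphorins, which guide axons. The 7 outside Cspg4b all lay between genes.

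Other members lay over control H3K27ac and had no mutant H3K27ac. The peak with the most such bases measured 9665 bp on chromosome 8 (105154639 to 105164303), 4529 bp from the carboxylesterase gene Ces4a, with 93.1% under control H3K27ac. Peaks within Ammecr1l on chromosome 18 (6593 bp) and Aatf on chromosome 11 (84490818 to 84496305, 5488 bp) lay wholly under control H3K27ac. At H2bc6, a replication-dependent histone gene on chromosome 13, a peak of 6088 bp (23590397 to 23596484) had 96.9% under control H3K27ac. Histone genes are near-identical copies, so that call is uncertain. The others of the 8 lay within Pogz or had Igsf11, Hibadh or Wbp2nl as nearest coding gene, with 69.1 to 98.6% under control H3K27ac.

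A small part of the members stood clear of all control peaks. For 192 (12.8%) neither control H3K4me3 nor control H3K27ac lay within 10 kb. Of these, 98 (51.04%) overlapped mutant H3K27ac against 59.4% of all members, and 116 (60.4%) lay between genes, against 57.7%. Among small RNAs, 5 of 919 microRNA hairpins lay in a mutant-only peak, with the members covering 0.400% of the chromosome span. They were Mir5128, Mir7050, Mir1983, Mir208a and Mir1291. Mir208a, a microRNA of heart muscle, lies within Myh6 on chromosome 14, and the peak of 9575 bp there had no H3K27ac in either condition.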

How the data were processed

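The data were 4 peak lists from ULI-NChIP-seq of late 2-cell mouse embryos, 1 for each of the 4 immunoprecipitation groups among 16 libraries. The lists as deposited by the authors hold positions alone, with no signal, score or p-value. The submitters' processing notes name CASAVA, Trimmomatic, Bowtie2, SAMtools, Picard, MACS2 and deepTools, and the builds mm10 and GRCm38, without roles or settings. Whether both libraries of a group were pooled before peak calling is not given in the sources used here. The lists differ in their smallest width (149 to 182 bp) and smallest gap (602 to 734 bp), which can change numbers and widths of peaks. The depth of the libraries is unknown, and the precision of the positions cannot be stated.

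List starts were taken as counted from 0, and printed positions count from 1. Overlaps, distances and coverage were computed with Python 3.11.15, numpy 2.4.6 and pandas 2.3.3, after the interval functions had been tested on simulated data. An overlap is at least 1 bp. Gene positions came from RefSeq on GRCm38.p6. Strand and start sites were known for 16457 of 20665 protein-coding genes on chromosomes 1 to 19, so gene ends of both kinds were used for counts of genes. Start sites of chromosome 18 were not used here, which leaves out 67 members. Of 606 listed genes, 577 were matched on these chromosomes.

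Sets of comparison were control-only peaks, and mutant or control peaks overlapping the other condition, all of 5 to 10 kb. The members and the gene lists were chosen with earlier results of these data known. Named members are, by a fixed rule, the 8 widest, the 8 farthest from control H3K4me3, the 8 with most mutant H3K27ac among those without control H3K27ac, the 8 with most control H3K27ac among those without mutant H3K27ac, genes with 3 or more members, and of the newly marked genes the 12 with the widest members and all that are in a list, besides every listed gene that holds a member. Some of these genes are not reported here. Alternatives varied the distance to control H3K4me3, the joining of peaks, the width limit, the chromosomes, the H3K27ac overlap, the gene window and the neighbour distance.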

Additional observations from a re-analysis of the deposited data

How the results depend on the processing

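No paired analysis was possible because both libraries of a group share 1 peak list, and leaving out a replicate could not be run for the same reason. Of 65 recomputed values, 45 stayed within the counting interval or, for counts, within 1.5 times, and 20 moved. Requiring no control H3K4me3 within 5 kb left 767 peaks and 51 newly marked genes. There the share with control H3K27ac was 32.1%, with mutant H3K27ac alone 38.1%, at a gene end 11.2%, with another mutant peak within 10 kb 72.9% and with another member within 50 kb 10.3%. A width over 6 kb left 859 peaks and 49 newly marked genes, as fewer peaks enter, with control H3K27ac at 39.5%, another mutant peak within 10 kb at 82.7% and another member within 50 kb at 7.92%. With at least 10% of a peak under H3K27ac, 50.6% had mutant and 27.6% control H3K27ac. Gene-end windows of 1 and 5 kb gave 10.7% and 21.8% at a gene end, and the latter 53.9% between genes. Another mutant peak was within 5 kb for 62.1% and within 20 kb for 92.3%.

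Joining peaks less than 1 kb apart lowered the share with another mutant peak within 10 kb to 75.2%. It gave 1559 peaks and linked 189 of the 1502 members to a peak that overlapped control H3K4me3. Common limits (gaps under 750 bp joined, peaks under 200 bp dropped) gave 1509 peaks and linked 14. The order of mutant above control H3K27ac shares held under all alternatives run. Depth is unknown and heights were not analysed; strength within peaks is not reported here.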
